A study of Rattus norvegicus with 4 samples.

Results

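The genes described here, 6 in number, are used to recognise mesenchymal stem cells and progenitors, and were followed in cultured tendon stem/progenitor cells. They are Mcam (CD146), Eng (CD105), Thy1 (CD90), Cd44, Cd34 and Nes (nestin). They were taken as the features annotated with these symbols, and all 6 were measured, each by 1 feature, among 7235 named genes and 10141 features in all. The genes lie on chromosomes 8 (Mcam and Thy1), 3 (Eng and Cd44), 13 (Cd34) and 2 (Nes) of the rat genome GRCr8.

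The study asked whether prim-O-glucosylcimifugin (POG), a plant chromone glucoside, changes the state of aged rat tendon stem/progenitor cells (rTSPCs). In the 18M + POG group, rTSPCs of 18-month-old rats received POG at 20 μM, and in the 18M + DMSO group rTSPCs of the same age received the same volume of the solvent alone. Each group had 2 arrays, with labelled cDNA of total RNA hybridised to the Affymetrix Rat Transcriptome Array, and signals are given in log2 units after robust multichip analysis (RMA). All cells were colonies grown out of Achilles tendons of male Sprague-Dawley rats and kept in culture, so they stand for cultured cells and not for tendon tissue. The labels name treatment until passage 12 for both groups, whereas the study describes aged rTSPCs treated for some days. The study's passaging to passage 12 used rTSPCs of young rats. The sample titles name 18-month-old rats, and the age given here follows them. Neither the passage of these cells nor the length of their treatment is settled. The titles of the samples are unclear about the treatment, so each array was placed by the entry that names its treatment. The arrays are called biological replicates with no word on separate rats, and the p-values below reflect only how far these arrays spread. Standard errors, intervals and p-values from limma use a spread for each gene that is drawn towards that shared by all genes. Array medians were 8.55 and 8.59 for 18M + POG and 8.57 and 8.68 for 18M + DMSO. Over all features, the correlation was 0.994 between the POG arrays, 0.995 between the DMSO arrays and 0.962 to 0.965 between groups. Among tendon cell markers, the collagen gene Col1a1 had the highest signal, 19.41 and 19.40 in 18M + POG and 19.08 and 19.17 in 18M + DMSO. Scx, the tendon transcription factor scleraxis, lay at 5.86 and 5.48 in 18M + POG, against 5.93 and 6.09 in 18M + DMSO. The tables hold no detection values, so such low signals could not be told from background; the lowest feature of each array lay at 3.08 to 3.15.

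Mesenchymal stem cells are recognised by a panel of surface proteins rather than by any single one. CD90 is a small glycoprotein held in the membrane by a lipid anchor, CD105 is a coreceptor for ligands of the transforming growth factor β (TGF-β) family, and CD44 is the main receptor for the matrix glycan hyaluronan. CD146 is an adhesion molecule of perivascular progenitors, pericytes and endothelium, and marks clonogenic stromal cells. CD34 is a sialomucin of blood progenitors and endothelium that cultured mesenchymal cells usually lack, and nestin is an intermediate filament protein of neural and other progenitors. The study's flow cytometry panel had CD105, CD90 and CD29 as positive and CD34 and CD45 as negative markers of rTSPCs, CD146 was stained in tendons, and nestin was among its stemness factors.

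To set the markers beside their start sites, promoter sequences were taken from RefSeq (GRCr8, 250 bases before to 50 bases after the start). The table holds 4 of the 6 genes, Eng, Cd44, Cd34 and Nes; Mcam and Thy1 were not in it. The sequences of Eng, which rose, and of Cd44 and Nes, which fell, are shown because the results below turn on these opposite directions. Capitals mark every match on either strand to any of 5 motifs. The first was the GC box, searched as GGGCGG. The second was the box named after its letters, CCAAT. The third was the TATA box, searched as TATAAA. The next was the cell cycle element CHR, searched by its core, TTTGAA. The last was an element that SMAD proteins bind, searched as CAGAC. No match overlapped another.
Eng, chr3:36332029-36332328, plus strand: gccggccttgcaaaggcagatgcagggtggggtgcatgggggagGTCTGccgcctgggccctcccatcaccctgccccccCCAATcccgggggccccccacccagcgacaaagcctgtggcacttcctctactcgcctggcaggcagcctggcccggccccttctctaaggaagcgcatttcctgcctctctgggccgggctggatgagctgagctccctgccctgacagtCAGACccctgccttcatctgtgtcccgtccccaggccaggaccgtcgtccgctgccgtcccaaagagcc
Cd44, chr3:109699375-109699674, minus strand: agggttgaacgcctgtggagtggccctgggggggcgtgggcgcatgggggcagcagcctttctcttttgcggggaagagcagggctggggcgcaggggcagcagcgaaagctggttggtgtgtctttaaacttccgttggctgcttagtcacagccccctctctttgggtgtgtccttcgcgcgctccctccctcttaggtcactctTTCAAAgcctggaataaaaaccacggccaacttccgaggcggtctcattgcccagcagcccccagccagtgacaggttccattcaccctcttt
Nes, chr2:175736338-175736637, plus strand: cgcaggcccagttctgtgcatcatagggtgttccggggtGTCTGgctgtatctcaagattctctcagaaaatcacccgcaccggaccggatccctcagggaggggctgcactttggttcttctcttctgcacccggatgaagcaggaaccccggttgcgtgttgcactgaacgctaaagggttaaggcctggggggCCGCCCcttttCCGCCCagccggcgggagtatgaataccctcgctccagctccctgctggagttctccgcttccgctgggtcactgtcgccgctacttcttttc
The Eng sequence held the CCAAT box at 170 bases before the start and the SMAD element at 19 and, on the opposite strand, at 206 bases before it. The Cd44 sequence held the CHR core at 43 bases before the start, on the opposite strand, and no other match. The Nes sequence held the GC box at 54 and at 43 bases and the SMAD element at 211 bases before the start, all on the opposite strand. That of Cd34 (chr13:109008536-109008835, plus strand) held the GC box at 47 and, on the opposite strand, the SMAD element at 226 bases before the start. None of the 4 held the TATA box. Of all 33469 promoters of this length, 33.1% held the GC box, 37.5% the CCAAT box, 14.2% the TATA box, 18.3% the CHR core and 50.1% the SMAD element. GC content was 68.7% for Eng, 60.3% for Cd44, 66.3% for Cd34 and 60.0% for Nes, against a median of 51.7% over all promoters. A match is only a run of letters, and none of these was tested for use.

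The 6 markers did not move as 1 panel. Mcam, Eng and Cd34 were higher and Cd44 and Nes were lower in 18M + POG than in 18M + DMSO, and Thy1 did not pass the test (limma, Benjamini-Hochberg adjusted p under 0.05 over 7235 genes). Directions are those of the treatment labels, and for the proliferation gene Mki67 they run opposite to the protein staining the study describes for cultured aged rTSPCs given POG. Of all named genes, 37.6% passed, 20.4% higher and 17.2% lower, so 5 of 6 markers stand against that share. The arrays of the groups did not overlap for 6 of 6 markers, which held for 69.8% of all named genes. The median log2 difference was 0.46 for the 6 markers and 0.04 for all named genes. In bulk RNA, fewer cells that carry a marker and less RNA of it per cell cannot be told apart. With 1 array left out, 0 to 1 markers were higher and 0 to 1 lower. Mcam passed without either DMSO array but not without POG replicate 1 or POG replicate 2, Cd44 passed only without DMSO replicate 2, and Eng, Cd34 and Nes passed in none of the 4 fits, while every marker kept its direction in all of them.

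**Figure D1:**
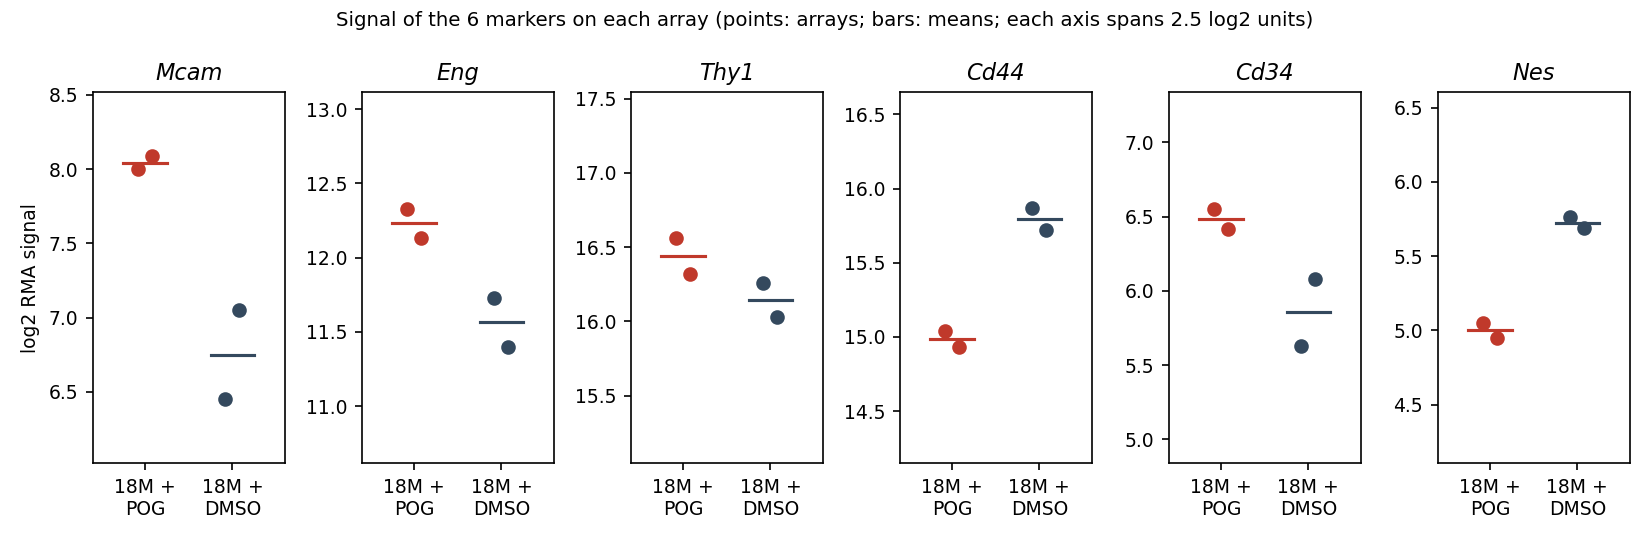
Log2 RMA signal (vertical axes, each spanning the same number of log2 units but at its own level) of the 6 markers on each array, with 18M + POG left of 18M + DMSO; points are arrays and bars are means of 2 arrays. Both POG arrays lie above both DMSO arrays for Mcam, Eng, Thy1 and Cd34 and below them for Cd44 and Nes, by the smallest gap, 0.06, for Thy1.

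Mcam encodes CD146, the adhesion molecule by which the study stains progenitors in tendon. Its signal was 8.0 and 8.09 in 18M + POG, against 6.45 and 7.05 in 18M + DMSO. Both POG arrays lay high and close together, and the DMSO arrays were 0.60 apart. The means were 8.05 ± 0.06 in 18M + POG and 6.75 ± 0.42 in 18M + DMSO (SD, n = 2 each). This is a log2 difference of 1.30 (standard error 0.22, 95% interval 0.82 to 1.77, adjusted p = 0.000417 from limma), a 2.45-fold higher signal and the largest change of the 6 in size. Of all named genes, 3.68% rose at least as far. Without POG replicate 1 or POG replicate 2, the adjusted p was 0.0524 or 0.0624, and without DMSO replicate 1 or DMSO replicate 2 it was 0.0379 or 0.00910.

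Lists of partners or relatives and of cell type markers were read beside the 6 genes. The genes listed with CD146 and CD90 went several ways. Of 23 genes on that list 16 were measured, of which 5 rose, 3 fell and 8 did not pass, with a median log2 difference of -0.07; with 1 array left out, 1 to 2 were higher and 0 to 2 lower, and without the dimmest 25% of genes, 3 were higher and 3 lower. Pdgfrb, the platelet-derived growth factor receptor β to which CD146 is known to bind in pericytes, had 16.81 and 16.60 in 18M + POG, against 15.57 and 15.27 in 18M + DMSO. Its log2 difference of 1.29 (standard error 0.20, adjusted p = 0.000205) was almost that of Mcam. The difference between both genes, taken within each array, was -8.81 and -8.51 in 18M + POG and -9.12 and -8.22 in 18M + DMSO, with overlap between the groups. Lama5, a laminin chain gene written on that list, had a log2 difference of 0.85 (adjusted p = 0.0103). Its signals, 4.42 and 5.08 in 18M + POG and 4.0 and 3.80 in 18M + DMSO, lay near the floor. Lgals3, the galectin that binds CD146, rose by 0.76 (adjusted p = 0.00994) and Nrp1, a neuropilin coreceptor, by 0.83 (adjusted p = 0.00425). Of other listed genes, Wnt5a, a Wnt ligand that CD146 binds, fell by 0.69 on the log2 scale (adjusted p = 0.0140). Alcam (CD166), an adhesion molecule of the same family as CD146, fell by 0.95 (adjusted p = 0.00182). Kdr, the vascular endothelial growth factor receptor to which CD146 is a coreceptor in endothelium, had 5.50 and 5.94 in 18M + POG and 5.73 and 5.82 in 18M + DMSO (adjusted p = 0.857).

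Eng encodes CD105. Its signal was 12.33 and 12.13 in 18M + POG, against 11.73 and 11.40 in 18M + DMSO. The groups lay 0.40 apart at their nearest arrays. The means were 12.23 ± 0.14 in 18M + POG and 11.57 ± 0.23 in 18M + DMSO (SD, n = 2 each), a log2 difference of 0.67 (standard error 0.20, 95% interval 0.23 to 1.10, adjusted p = 0.020 from limma) or 1.59-fold. Of all named genes, 15.8% rose at least as far. Without any 1 of the arrays its adjusted p lay between 0.0663 and 0.190.

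Endoglin works with type I and type II receptors and passes signals of bone morphogenetic proteins (BMPs) and TGF-β to SMAD proteins. Of 19 measured of 27 written genes of this pathway, 4 rose, 7 fell and 8 did not pass (median log2 difference 0.23); with 1 array left out, 1 to 3 were higher and 3 to 5 lower. Of the type I receptors that respond to BMPs, Acvrl1 and Acvr1 passed and moved in the direction of Eng. Bmpr1a overlapped between the groups and did not pass (log2 difference 0.23, adjusted p = 0.425). Acvrl1 (ALK1), the type I receptor endoglin assists, had 9.15 and 9.33 in 18M + POG and 8.10 and 8.82 in 18M + DMSO, and rose by a log2 difference of 0.78 (adjusted p = 0.0188). Acvr1 (ALK2) rose by 0.72 (adjusted p = 0.0106). Bmpr2, the type II receptor, and Tgfbr1 had log2 differences of 0.34 (adjusted p = 0.189) and 0.33 (adjusted p = 0.200) that did not pass. Tgfbr3 (betaglycan), the other coreceptor of the family and the closest relative of endoglin, went the other way, with 8.55 and 8.55 in 18M + POG, against 9.09 and 9.54 in 18M + DMSO (log2 difference -0.77, standard error 0.21, adjusted p = 0.0107). The difference between Eng and Tgfbr3 taken within each array was 3.78 and 3.58 in 18M + POG and 2.64 and 1.86 in 18M + DMSO.

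The Id genes and the inhibitory SMAD genes, which BMP signals are known to switch on, were lower. Id1, an inhibitor of DNA binding that is a direct SMAD target, had 9.84 and 10.0 in 18M + POG, against 12.54 and 12.57 in 18M + DMSO, a log2 difference of -2.64 (standard error 0.19, adjusted p = 1.2e-07). Id2 and Id3 had log2 differences of -1.16 (adjusted p = 0.00201) and -0.89 (adjusted p = 0.00406). The inhibitory SMAD genes Smad6 and Smad7 stood at -1.19 (adjusted p = 0.000527) and -0.82 (adjusted p = 0.00761), and Smad9, a receptor-activated SMAD, at -1.68 (adjusted p = 1.5e-05). Id genes are also known to be high in dividing cells, and cell division genes were lower in the same arrays, as given below; the part of cell division in these values was not tested. Mmp14, the membrane protease that sheds endoglin and CD44, had 16.14 and 15.94 in 18M + POG and 14.30 and 14.34 in 18M + DMSO (log2 difference 1.72, adjusted p = 9.6e-06). Of the ligands, Tgfb2 rose by 0.85 (adjusted p = 0.00491), while Tgfb1 and Tgfb3 had differences of 0.33 and 0.07 that did not pass.

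Cd44 encodes the hyaluronan receptor. Its signal was 15.04 and 14.93 in 18M + POG, against 15.87 and 15.72 in 18M + DMSO. The spread within groups was small, 0.11 and 0.15 log2 units, beside a gap of 0.68 between them. The means were 14.99 ± 0.08 in 18M + POG and 15.80 ± 0.11 in 18M + DMSO (SD, n = 2 each), a log2 difference of -0.81 (standard error 0.19, 95% interval -1.23 to -0.39, adjusted p = 0.00490 from limma), or 1.75-fold lower in 18M + POG. Of all named genes, 10.4% fell at least as far. With 1 array left out, its adjusted p lay between 0.0487, without DMSO replicate 2, and 0.0816. Unadjusted, the methods' t-test gave a p under their threshold for Cd44 and Nes but not for Mcam, Eng, Thy1 or Cd34.

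Genes that make, cut or bind hyaluronan, or that tie CD44 to the cell skeleton, fell into groups. Of 18 measured of 26 written, 6 rose, 3 fell and 9 did not pass (median log2 difference 0.20); with 1 array left out, 3 to 5 were higher and 2 lower. Hyal1, which cuts hyaluronan in lysosomes, had 9.61 and 10.04 in 18M + POG, against 7.67 and 8.62 in 18M + DMSO (log2 difference 1.68, standard error 0.27, adjusted p = 0.000263). Hyal3 rose by 1.58 (adjusted p = 6.6e-05) and Has2, a hyaluronan synthase, by 0.89 (adjusted p = 0.0123). The other synthase and hyaluronidase genes measured did not pass: Has1 had a difference of 0.14 (adjusted p = 0.616) and Hyal2 one of 0.05 (adjusted p = 0.864), with overlap between the groups for Hyal2. Srgn, a proteoglycan that binds CD44, rose by 1.42 (adjusted p = 7.6e-05). Ezr and Msn, whose proteins link CD44 to actin, fell by 1.22 (adjusted p = 0.000423) and 0.64 (adjusted p = 0.0178) on the log2 scale, whereas their relative Rdx had a difference of -0.40 that did not pass (adjusted p = 0.152). Hmmr, another hyaluronan-binding protein that is also part of the mitotic spindle, had 8.33 and 8.68 in 18M + POG and 12.06 and 11.90 in 18M + DMSO (log2 difference -3.48, standard error 0.20, adjusted p = 1.9e-08). The ligand gene Spp1 (osteopontin) had 15.60 and 15.70 in 18M + POG and 15.54 and 15.37 in 18M + DMSO (adjusted p = 0.453).

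Thy1 encodes CD90, a positive marker of the flow cytometry panel. Its signal was 16.56 and 16.32 in 18M + POG, against 16.26 and 16.03 in 18M + DMSO. The lower POG array lay only 0.06 above the higher DMSO array. The means were 16.44 ± 0.17 in 18M + POG and 16.15 ± 0.16 in 18M + DMSO (SD, n = 2 each), a log2 difference of 0.30 (standard error 0.20) that did not pass (adjusted p = 0.267 from limma). The 95% interval of -0.14 to 0.73 leaves room for a change in either direction. Its signal lay above 98.1% to 98.7% of features on the 4 arrays. Among partners of CD90, Fyn, a kinase of the inner membrane leaflet, rose by a log2 difference of 0.67 (adjusted p = 0.0154) and Sdc4, a syndecan that acts with the integrin that CD90 binds, fell, with 8.96 and 9.83 in 18M + POG, against 10.27 and 10.18 in 18M + DMSO (adjusted p = 0.0188). The integrin gene Itgb3 and the kinase gene Csk had differences of -0.08 and -0.17 that did not pass.

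Nes encodes nestin. Its signal was 5.05 and 4.95 in 18M + POG, against 5.76 and 5.69 in 18M + DMSO. The 2 arrays of each group lay within 0.10 of each other. The means were 5.0 ± 0.07 in 18M + POG and 5.73 ± 0.05 in 18M + DMSO (SD, n = 2 each), a log2 difference of -0.73 (standard error 0.19, 95% interval -1.14 to -0.31, adjusted p = 0.00907 from limma) or 1.65-fold lower in 18M + POG. With 1 array left out, the adjusted p lay between 0.0580 and 0.0941. These signals exceeded 12.1% to 13.2% of features in 18M + POG and 18.3% to 19.5% in 18M + DMSO, so the gene was among the dim ones in both groups and a share of the signal that is background cannot be given. Of 6 measured of 21 written genes of intermediate filaments and their partners, 1 fell and 5 did not pass. The one that fell was Lmnb1, a lamin of the nuclear envelope, with 8.23 and 7.76 in 18M + POG, against 11.11 and 11.38 in 18M + DMSO (log2 difference -3.25, adjusted p = 5.2e-08). Lmna, Plec, Nefh, Cdk5 and Cdk5r1 had differences from -0.49 to 0.30 that did not pass. The vimentin gene, whose protein pairs with nestin, was not analysed here.

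Cd34, a negative marker of the flow cytometry panel, was dim as well. Its signal was 6.55 and 6.42 in 18M + POG, against 5.63 and 6.08 in 18M + DMSO. The DMSO arrays were 0.45 apart, and the gap to the nearest POG array was 0.34. The means were 6.49 ± 0.09 in 18M + POG and 5.86 ± 0.32 in 18M + DMSO (SD, n = 2 each), a log2 difference of 0.63 (standard error 0.21, 95% interval 0.18 to 1.08, adjusted p = 0.0297 from limma) or 1.55-fold. Without DMSO replicate 1 the difference was 0.41 (adjusted p = 0.267), and without DMSO replicate 2 it was 0.86 (adjusted p = 0.0541). The signals exceeded 25.9% to 27.8% of features in 18M + POG and 18.3% to 22.0% in 18M + DMSO. Of the CD34 family and partners, 3 of 12 written were measured; Podxl2, a relative of CD34, had a difference of 0.49 (adjusted p = 0.0607), the adaptor gene Crkl one of -0.32 (adjusted p = 0.222), and Ezr fell as given above.

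**Figure D2:**
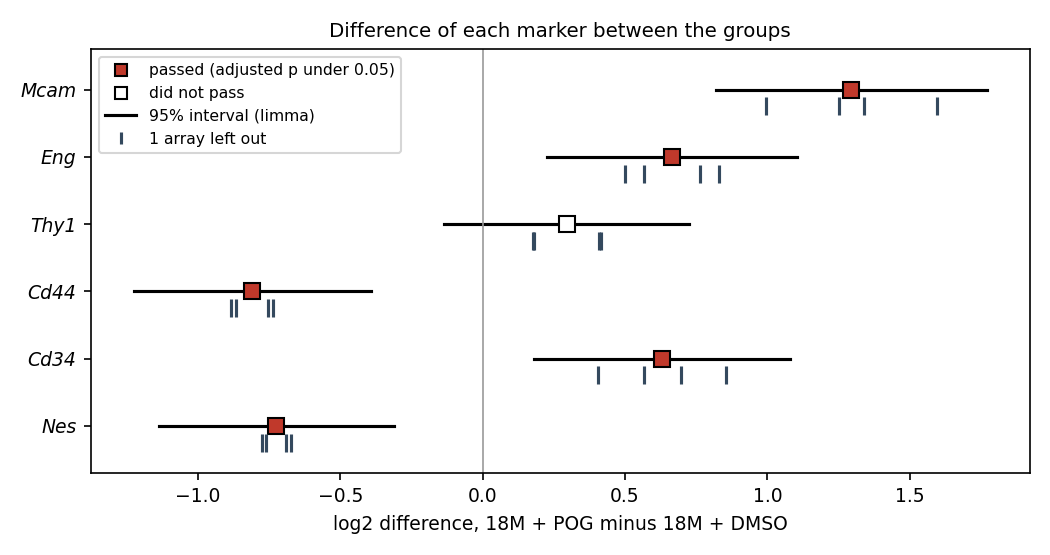
Log2 difference, 18M + POG minus 18M + DMSO, of each marker (horizontal axis, log2 units; squares filled where adjusted p is under 0.05) with its 95% interval from limma (lines, 2 arrays per group) and the differences with 1 array left out (ticks). Mcam lies farthest right at 1.30 and Cd44 farthest left at -0.81, the interval of Thy1 crosses 0, and no tick crosses 0.

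Other surface markers by which mesenchymal stem cells are recognised went both ways, as the 6 did. Of 25 measured of 31 written, 12 rose, 7 fell and 6 did not pass (median log2 difference 0.40); with 1 array left out, 7 to 8 were higher and 3 to 4 lower, and without the dimmest 25% of genes, Nt5e among them, 10 were higher and 7 lower. Nt5e (CD73), the classical marker beside CD90 and CD105, had 5.67 and 5.69 in 18M + POG, against 4.71 and 4.71 in 18M + DMSO (log2 difference 0.97, standard error 0.19, adjusted p = 0.00124); signals this low could not be told from background. Fap, a surface protease of activated fibroblasts, had 9.64 and 10.33 in 18M + POG and 8.18 and 8.49 in 18M + DMSO (log2 difference 1.65, adjusted p = 9.1e-05). The aminopeptidase gene Anpep (CD13) rose by 1.49 (adjusted p = 3.3e-05) and the syndecan gene Sdc2 by 1.40 (adjusted p = 5.9e-05). F3, tissue factor, fell by 1.59 on the log2 scale (adjusted p = 2.0e-05), the integrin gene Itga6 by 1.25 (adjusted p = 0.000165) and the pericyte proteoglycan gene Cspg4 (NG2) by 0.84 (adjusted p = 0.00621). Itgb1, which encodes CD29, the remaining positive marker of the panel, had 17.52 and 17.55 in 18M + POG and 17.56 and 17.40 in 18M + DMSO. Its groups overlapped, and the difference was 0.06 (adjusted p = 0.844). Of 15 written surface markers that mesenchymal stem cells should lack, 2 were measured: Cd14, with a difference of 0.10 (adjusted p = 0.728), and Kit, the stem cell factor receptor, with 5.62 and 5.34 in 18M + POG, against 4.68 and 4.19 in 18M + DMSO (log2 difference 1.05, adjusted p = 0.00192), which with 1 array left out passed only without DMSO replicate 1. Kit was dim too and is not in the fit without the dimmest 25% of genes. Ptprc (CD45) was not analysed here.

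Since CD146, CD34 and nestin also mark endothelium, pericytes, blood cells and neural cells, markers of those cells were read in the same arrays. Endothelial markers, 3 of 14 measured (Kdr, Flt1 and Erg), were dim, at 3.61 to 5.94. Of these, 0 passed in limma, 0 had a raw p under 0.05 and 0 passed the methods' t-test. Their summed signal was 6.53 and 6.66 in 18M + POG and 6.60 and 6.40 in 18M + DMSO on the log2 scale, with overlap. Blood cell markers, 4 of 17 measured, also had 0 that passed, 0 with a raw p under 0.05 and 0 in the methods' t-test. Their summed signals were 9.06 and 8.89 in 18M + POG and 8.77 and 9.03 in 18M + DMSO. Most of each sum came from Cd14, at 8.46 to 8.83, whereas Cd68, Lyz2 and Fcer1g lay at 3.38 to 5.32. Of 10 measured of 14 pericyte and smooth muscle markers, 3 were higher and 2 lower (2 higher and 0 to 1 lower with 1 array left out), with summed signals of 19.11 and 18.89 in 18M + POG and 18.94 and 18.84 in 18M + DMSO. Myh11, smooth muscle myosin, rose the farthest, with 11.07 and 10.95 in 18M + POG and 7.94 and 7.80 in 18M + DMSO (log2 difference 3.14, adjusted p = 2.8e-08), Cnn1 (calponin) rose by 0.86 (adjusted p = 0.00731), and Smtn (smoothelin) fell by 0.87 (adjusted p = 0.00356). The pericyte list thus had members on both sides, Pdgfrb with Mcam and Cspg4 against it. The part of pericyte-like cells in the rise of Mcam was not tested. Of Schwann and neural markers, 2 of 10 were measured and both were higher, S100b by a log2 difference of 0.91 (adjusted p = 0.00414) and Map2 by 0.88 (adjusted p = 0.00438), while Nes was lower; with 1 array left out, 0 to 2 of them passed.

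Markers of the lineages that these progenitors can enter were partly higher. Of 5 measured of 9 adipocyte markers, 2 were higher and 1 was lower: Lpl (lipoprotein lipase) rose by 1.92 (adjusted p = 3.1e-06), Adipoq (adiponectin) by 1.11 (adjusted p = 0.000675), and Pparg, the regulator of fat cell formation, fell by 0.70 on the log2 scale (adjusted p = 0.0145). The summed signal of this list was 9.06 and 9.09 in 18M + POG and 8.0 and 8.21 in 18M + DMSO, and with 1 array left out the 2 rises passed and the fall of Pparg did not. Adipoq and Pparg were dim, and without the dimmest 25% of genes only 1 gene of the list was higher, Lpl, and 0 were lower. Of 6 measured of 12 cartilage and bone markers, 3 rose and 3 did not pass, with Acan (aggrecan) at 1.18 (adjusted p = 0.000437), Alpl (alkaline phosphatase) at 1.13 (adjusted p = 0.00339) and Col2a1 at 0.57 (adjusted p = 0.0439); with 1 array left out, 1 to 2 passed. Of 12 measured of 18 tendon cell markers, 5 were higher and 2 lower (5 higher and 1 to 2 lower with 1 array left out). The small proteoglycan genes Aspn, Lum and Dcn rose by 3.81 (adjusted p = 1.1e-08), 2.79 (adjusted p = 1.1e-07) and 1.18 (adjusted p = 0.000297). Fmod, another gene of that kind, had a difference of 0.34 that did not pass (adjusted p = 0.212). Tnc (tenascin C) fell by 1.63 (adjusted p = 3.4e-05), and Thbs4 had a log2 difference of -0.925 (adjusted p = 0.00189).

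Genes of dividing cells fell together: 21 of 21 measured of 25 written were lower, with a median log2 difference of -3.35, and 21 were lower with any 1 array left out. Mki67 had 10.97 and 10.91 in 18M + POG, against 15.11 and 15.04 in 18M + DMSO (log2 difference -4.14, standard error 0.19, adjusted p = 5.4e-09). The 2 markers that fell, Cd44 and Nes, changed by less than any gene of this list, of which the smallest drop was that of Pcna at -2.25. Hmmr and Lmnb1, in the CD44 and nestin lists, are known to be high in dividing cells and lay within the range of the list. The part of cell division in the values of the 6 markers was not tested.

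**Figure D3:**
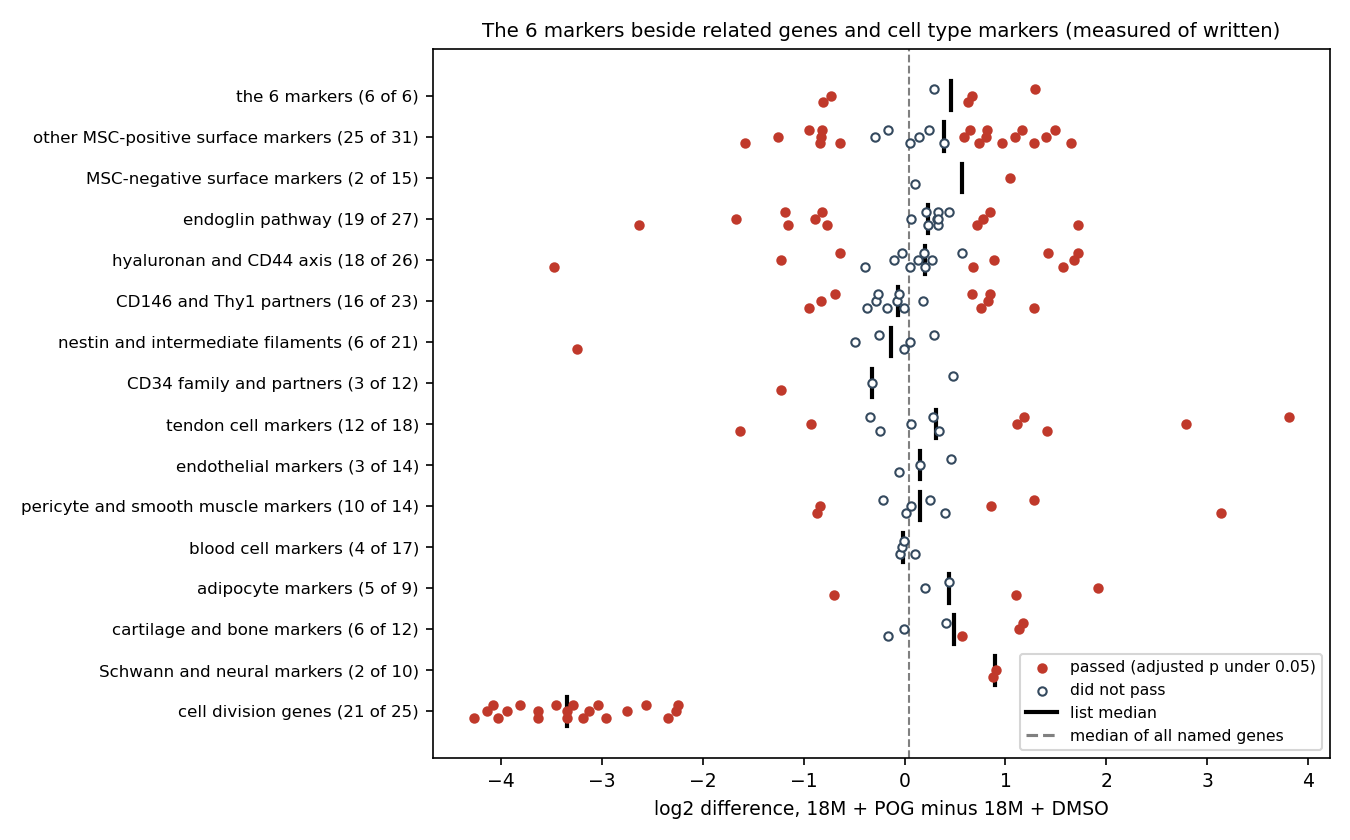
Log2 difference, 18M + POG minus 18M + DMSO (horizontal axis, log2 units), of the 6 markers and of each measured gene of 15 other lists (rows; measured of written in parentheses), filled where adjusted p is under 0.05, with list medians as bars and the median of all named genes, 0.04, as the dashed line. Most lists hold points on both sides of 0, and the cell division genes lie apart with a median of -3.35.

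Taking differences between markers within each array removes any scale shared by the whole array. Mcam minus Cd44 was -7.04 and -6.84 in 18M + POG, against -9.42 and -8.67 in 18M + DMSO, a shift of 2.11 between the means. Eng minus Cd44 was -2.71 and -2.80 in 18M + POG and -4.14 and -4.32 in 18M + DMSO, a shift of 1.48. Cd44 minus Thy1 was -1.52 and -1.39 in 18M + POG and -0.39 and -0.31 in 18M + DMSO, a shift of -1.11. Relative to both Eng and Thy1, Cd44 was thus lower on both POG arrays than on either DMSO array. Nes minus Thy1 was -11.51 and -11.37 in 18M + POG and -10.50 and -10.34 in 18M + DMSO. The size of such a difference on 1 array depends on the probes and says nothing of which gene has more RNA. These differences were described and not tested.

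The genes whose pattern over the 4 arrays lay nearest to each marker were found by the largest deviation of any array after each gene's mean was removed, over 2 arrays per group. Nearest to Mcam were Bmp6, a BMP ligand (largest deviation 0.04 log2 units), and Kdm5b, a histone demethylase (0.06). Nearest to Eng were B3gat3, an enzyme of proteoglycan linker synthesis, and Fdft1, squalene synthase (0.02 and 0.03). Cryz and Mapk8 lay nearest to Thy1 (0.02 each), and Aif1l and Smyd5 nearest to Cd44 (0.02 each). Gpatch2l and Klhl5 lay nearest to Cd34 (0.02 and 0.03) and Acy1 and Glycam1 nearest to Nes (0.03 and 0.04). Bmp6, for example, had 8.28 and 8.40 in 18M + POG and 6.80 and 7.37 in 18M + DMSO. All these genes were picked for the nearness of their values, so their likeness to the markers is no separate result.

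Thy1 and Mcam are neighbours on chromosome 8, with 4 protein-coding genes between them in the order of the GRCr8 gene table. These were looked up for their position, after the values of the markers were known. In order from Thy1 they are Usp2, a deubiquitinase, Mfrp, a membrane frizzled-related protein, C1qtnf5, a secreted C1q-like protein, and Rnf26, a ubiquitin ligase. Usp2 had 6.95 and 6.76 in 18M + POG, against 7.28 and 7.66 in 18M + DMSO (log2 difference -0.62, standard error 0.21, adjusted p = 0.0309). Mfrp had 10.02 and 9.84 in 18M + POG, against 6.82 and 6.21 in 18M + DMSO (log2 difference 3.42, standard error 0.23, adjusted p = 4.7e-08). C1qtnf5 had 10.90 and 10.61 in 18M + POG, against 9.76 and 9.51 in 18M + DMSO (log2 difference 1.12, standard error 0.20, adjusted p = 0.000675). The neighbours did not share a direction, and Mfrp moved more than Thy1 or Mcam. Rnf26, next to Mcam, had 8.19 and 8.35 in 18M + POG, against 9.79 and 10.16 in 18M + DMSO (log2 difference -1.71, standard error 0.21, adjusted p = 1.7e-05). Mfrp and C1qtnf5 are known in human and mouse to be made from a shared transcript, and whether the probes of the array tell them apart was not tested.

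**Figure D4:**
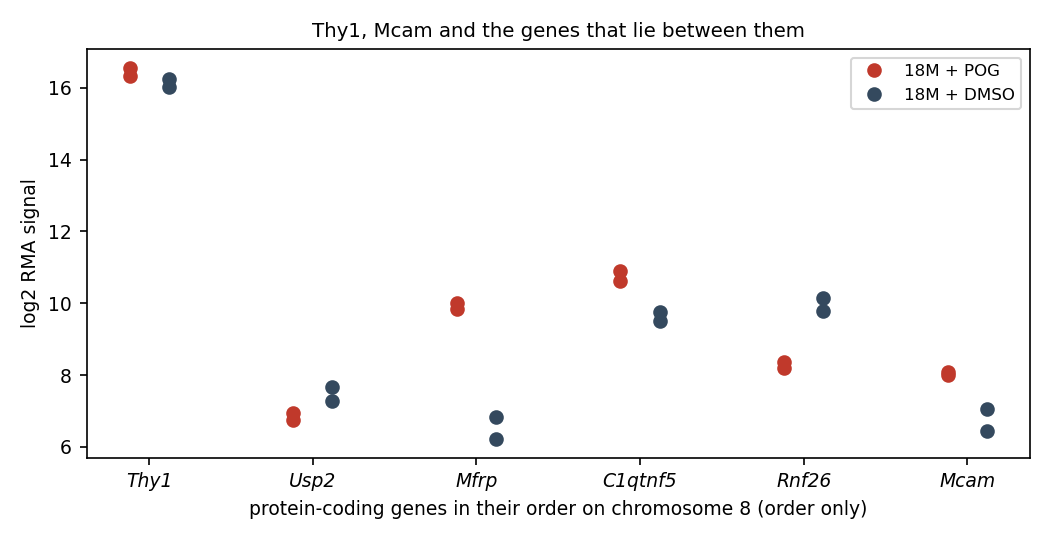
Log2 RMA signal (vertical axis) on each array of Thy1, Mcam and the 4 protein-coding genes between them on chromosome 8, in gene order and not to scale (horizontal axis); points are arrays, 18M + POG left of 18M + DMSO. Mfrp, C1qtnf5 and Mcam lie higher in both POG arrays, Usp2 and Rnf26 lower, and Thy1 differs little.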

How the data were processed

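RNA of rTSPCs was measured on 4 arrays, 2 for each treatment. The authors deposited log2 signals made by RMA with global scaling; the program's version was not found in the sources read. Of 10141 features, 7240 had 1 gene symbol in the platform annotation, 0 had several and 2901 had none, which leaves 7235 genes; for 4 genes with more than 1 feature, that with the highest mean was kept. The tables hold no counts, so the number of arrays limits the precision. Another deposited table held identical values in all 10141 features.

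Differences, 18M + POG minus 18M + DMSO, came from limma (version 3.58.1, R version 4.3.3), using lmFit and eBayes with group as sole term and no filter on signal. Tests were two-sided, adjusted by Benjamini-Hochberg over 7235 genes at 0.05. The fit was also run on simulated data with known changes, in a far smaller share of genes than passed here. That run checks the code and not the calls on these arrays. An exact permutation test of 2 against 2 arrays cannot give a two-sided p under 0.333. Genes named were the 6 markers, the flow cytometry panel and the 2 nearest patterns of each marker. Partners whose role is described and genes picked from the lists were also named. Many picks had large changes past the threshold, but not every large change was named. The markers and lists were chosen with earlier results of these data known. Alternatives changed the source (the other table), the scaling (quantile normalization or array medians subtracted), the genes tested (the dimmest 25% left out, features of a gene averaged, or unnamed features added), the test (a trended prior, limma's treat at 1.5-fold, or the methods' t-test with and without adjustment), and the arrays (a replicate block, or each array left out). Figures were drawn with matplotlib 3.10.9.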

Additional observations from a re-analysis of the deposited data

How the results depend on the processing

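Over 88 combinations of marker and alternative, 59 kept direction and side of the threshold, 29 kept the direction but did not pass, and 0 reversed. Part of the 59 was fixed in advance. The other table held identical values, so its fit could not differ. Each marker had 1 feature, so averaging the features of a gene could not move its log2 difference. Thy1 counted among the 59 throughout because it passed in no fit. Without the dimmest 25% of genes, which removes Nes and Cd34 from the fit, 2 markers were higher and 1 was lower. The same setting left 3 of 5 genes listed with CD146 and CD90 and 1 of 2 adipocyte markers as higher. It left 0 of 1 marker that mesenchymal stem cells should lack as higher, and 0 of 1 adipocyte markers as lower. Against a fold change limit of 1.5, 1 marker was higher (Mcam) and 0 lower, with 333 higher and 417 lower among all named genes. The methods' t-test with its fold change limit gave 0 higher and 2 lower markers, and 786 higher and 784 lower of all genes, before adjustment; after Benjamini-Hochberg it gave 0 and 0 markers and 0 and 0 of all genes, whereas limma at an unadjusted p under 0.05 gave 1853 higher and 1570 lower. With 1 array left out, 0 to 1 markers were higher and 0 to 1 lower, and 523 to 660 of all genes were higher and 592 to 619 lower; such a fit has 3 arrays, and the lone array is assumed to vary like the other group. The labels number the arrays 1 and 2 in both groups without saying that a number marks a shared batch, and same-numbered arrays deviated together only weakly (r = 0.161 across features, 2 pairs). A replicate block left 3 markers higher and 2 lower, with 1599 and 1358 of all genes. No scaling moved the median of all genes by over 0.1: it lay at 0.04 as deposited, 0.04 after quantile normalization and 0.09 with array medians subtracted. Calls were lost both where an array was left out and where the test or its limit was changed with every array in the fit. The cause of the lost calls was not tested. The low signals of Nes and Cd34 limit what their differences show.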
